A study of Mus musculus with 6 samples.

Results

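The growth hormone and insulin-like growth factor axis was described here through 10 genes, which are *Igf1*, *Igf1r*, *Igfbp2* to *Igfbp7*, *Ghr* and *Socs2*. They were chosen by name, with no measured value in the rule, and matched by their Ensembl identifiers to 10 of the 47729 genes in the deposited table. All 10 passed the filter of a mean of at least 20 reads, which left 19308 genes for testing. RNA sequencing (RNAseq) was performed on the proximal tibial epiphyses of 3 Control and 3 Longshanks 1 (LS1) mice, all 14 days postnatal and from generation 13 of a selection experiment. LS1 mice descended from parents selected for a longer tibia at a given body mass, and Control (ICR) mice were random-bred from the same outbred background, with no treatment in either group. The mice came from different families, the epiphyses of both tibiae of a mouse were pooled into 1 library, and the tissue held growth plate, metaphysis, articular cartilage, the secondary ossification center and marrow together. LS1 is a single selected line, so a difference from Control can be an effect of selection or of drift within that line, which cannot be told apart with these libraries.

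Growth hormone from the pituitary acts on the growth hormone receptor, which signals through the kinase JAK2 and the transcription factors STAT5A and STAT5B. Insulin-like growth factor 1 (IGF1) is made by the liver and circulates, and it is also made locally in bone and cartilage, where it promotes chondrocyte proliferation and the enlargement of hypertrophic chondrocytes. IGF-binding proteins (IGFBPs) hold IGF1 and IGF2 in the matrix or in the circulation, and proteases that cleave them release the ligand to the receptor IGF1R. SOCS2 is induced by growth hormone and dampens its signal, and mice that lack it are large with long bones.

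The regions before the transcription start sites of *Igfbp5* and *Ghr* are shown because these were the only members whose LS1 libraries all lay on one side of all Control libraries, and that of *Igfbp4* because it and *Igfbp5* were the most abundant members. Each is 250 bases long, from RefSeq on GRCm38.p6, 5′ to 3′ on the strand of the gene. Capitals mark a TATA box (TATAAA) or its reverse complement.
*Igfbp5*, chr1:72874866-72875115, minus strand: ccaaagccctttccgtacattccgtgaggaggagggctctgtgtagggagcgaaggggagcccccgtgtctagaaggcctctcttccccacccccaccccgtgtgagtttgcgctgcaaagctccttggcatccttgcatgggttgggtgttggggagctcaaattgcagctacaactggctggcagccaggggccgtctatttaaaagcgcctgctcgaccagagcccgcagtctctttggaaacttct
*Igfbp4*, chr11:99040994-99041243, plus strand: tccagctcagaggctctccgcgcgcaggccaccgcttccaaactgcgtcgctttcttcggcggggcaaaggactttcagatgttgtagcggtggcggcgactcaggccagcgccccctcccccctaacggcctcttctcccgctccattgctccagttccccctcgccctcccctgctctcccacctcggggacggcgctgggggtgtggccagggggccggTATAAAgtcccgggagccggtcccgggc
*Ghr*, chr15:3581843-3582092, minus strand: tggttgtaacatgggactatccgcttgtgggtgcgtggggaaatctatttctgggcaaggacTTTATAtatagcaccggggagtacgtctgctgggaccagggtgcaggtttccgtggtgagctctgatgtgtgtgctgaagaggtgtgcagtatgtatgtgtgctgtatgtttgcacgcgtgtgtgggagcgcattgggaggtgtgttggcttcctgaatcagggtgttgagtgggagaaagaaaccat

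The windows searched ran from 250 bases before to 50 bases after each start, on both strands, and 9 of the 10 members matched 11 such windows. *Socs2* had no window, so the motif counts leave it out. TATAAA was found in 3 of the 11 windows, those of *Igfbp4*, *Igfbp6* and the *Ghr* start shown, against 13.6% of the 32851 windows of all genes. It began at position -28 from the start in *Igfbp4*, and the *Ghr* match was at position -188 on the opposite strand. A GC box (GGGCGG) occurred in 4 windows, those of *Igf1r*, *Igfbp7*, the upstream start of *Ghr* and the upstream start of *Igfbp2*, against 35.7% of all windows. The spaced palindrome TTCNNNGAA, which STAT factors can bind, was in 0 of the 11 windows and in 8.30% of all windows. Matches were counted for each motif on its own, and a match is a description of the sequence only.

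The libraries held 68803249 to 76581954 reads in Control and 82227711 to 88745366 in LS1, so that the smallest LS1 library was deeper than the largest Control library. The tissue label of bone, cartilage and marrow was checked against marker genes. All 16 chondrocyte, 7 hypertrophic chondrocyte and 12 osteoblast markers passed the filter, while 0 of 6 hepatocyte markers did, and *Apoa2* and *Ttr* were at no more than 3 reads in every library. LS1 replicate 3 stood apart from the other LS1 libraries on the first principal component, which carried 35.1% of the variance, with a score of -4.29 against 43.7 and 50.1 in LS1 and -41.5 to -22.1 in Control. The summed level of 4 Y-linked genes was 19313 to 30556 normalised read counts in Control replicate 3 and LS1 replicates 1 and 3, and 90.5 to 149 in the others. Where leaving out 1 of these libraries changed the sign or the call of a member or of *Igf2*, the value without it is given beside the result.

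To compare levels between genes, reads were divided by the length of the merged exons and scaled to the same total in each library (TPM). With this length, *Igfbp4*, *Igfbp5*, *Igfbp7* and *Igfbp3* were at the top of the order. *Igf1*, *Igf1r* and *Igfbp6* lay near the middle of all genes tested, and *Igfbp2* and *Socs2* were lowest. On the TPM scale *Igfbp4* had a mean level of 254 ± 31.9 and *Igfbp5* of 225 ± 40.1 (SD over 6 libraries), at percentiles 97.3 and 96.8 of the genes tested. By this length *Igfbp4* exceeded *Igfbp5* in 3 of the 6 libraries, which were the 3 LS1 libraries. The pair was thus not ordered beyond its spread by merged exons. The merged exons of *Igfbp4* span 4416 bases and its longest transcript 3831, while both are 6006 for *Igfbp5*. Dividing by the longest transcript would raise *Igfbp4* further against *Igfbp5*, so the gap between them depends on the length used. *Igfbp7* followed at 123 ± 21.4 TPM and *Igfbp3* at 88.1 ± 7.92 TPM, and each step was in the same direction in 6 of 6 libraries although the ranges of this pair overlapped. With merged exons the next step was the largest between neighbours. The mean level of *Igfbp3* was 3.81 times that of *Ghr*, at 23.1 ± 5.05 TPM. *Ghr* exceeded *Igf1* in 6 of 6 libraries. *Igf1* was at 14.8 ± 3.54 TPM, *Igf1r* at 11.7 ± 2.02 TPM and *Igfbp6* at 11.4 ± 3.41 TPM, and these neighbours did not differ beyond their spread, with *Igf1* above *Igf1r* in 4 of 6 libraries and *Igf1r* above *Igfbp6* in 3 of 6. *Igfbp2* at 6.69 ± 2.58 TPM and *Socs2* at 6.68 ± 0.439 TPM shared the lowest place by merged exons, at percentile 39.3. The merged exons of *Socs2* span 9531 bases and its longest transcript 4242, against 9053 and 4175 for *Ghr*. For *Igfbp6* both are 1112. Merged lengths lower *Socs2* and *Ghr* most, so the order and the steps from *Igfbp3* down depend on the length used. The spread of *Socs2* was the smallest of the 10 in proportion to its mean.

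**Figure D1:**
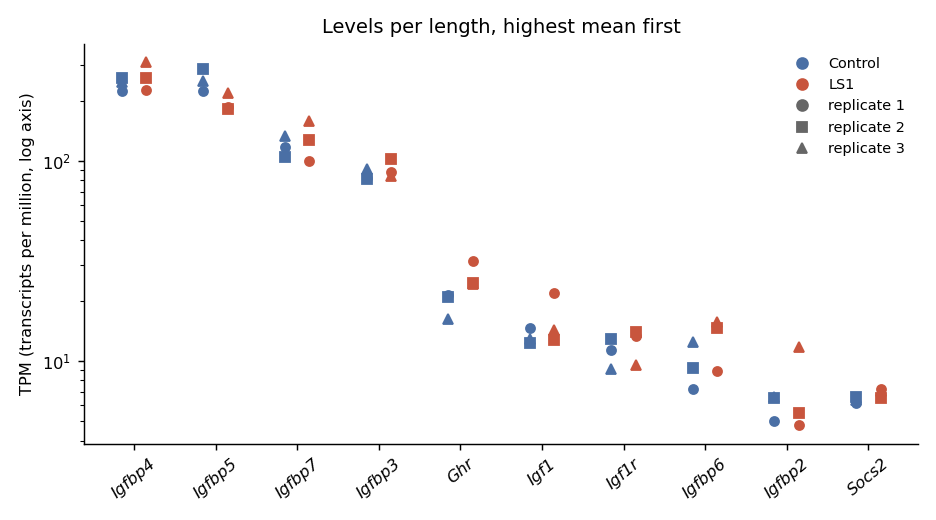
Level per length of the 10 genes in each library, in TPM on a log axis, ordered by the mean over 6 libraries. Blue points are Control and red points LS1, and the shape gives the replicate. *Igfbp4* (mean 254) and *Igfbp5* (mean 225) stand far above *Igf1* (mean 14.8), *Igf1r* (mean 11.7) and *Ghr* (mean 23.1).

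Expression was next compared between the lines, the comparison that asks which transcripts accompany the longer tibia. Of the 10 members, 0 passed an adjusted p of 0.05 in limma, as did 0 under edgeR and 0 under DESeq2, against 0.0725% of all genes tested in limma (14 of 19308, with 0.0104% higher and 0.0622% lower in LS1) and 2.38% in DESeq2 (459 of 19308). At an unadjusted p under 0.05, *Ghr* was higher and *Igfbp5* lower in LS1, 1 of 10 members in each direction, beside 7.08% of all genes higher and 5.86% lower, or 12.9% in either direction. The groups did not overlap for 1 member that was higher in LS1 and for 1 that was lower, against 10.3% and 8.94% of all genes and 19.2% in either direction, so these shares were close to the background. The log2 fold change was positive for 9 of the 10, beside 9783 of the 19308 genes tested. The median was 0.10 for the members and 0.0054 for all genes tested. Several of the positive values were small and changed sign with a library left out or with another setting, as given below.

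**Figure D2:**
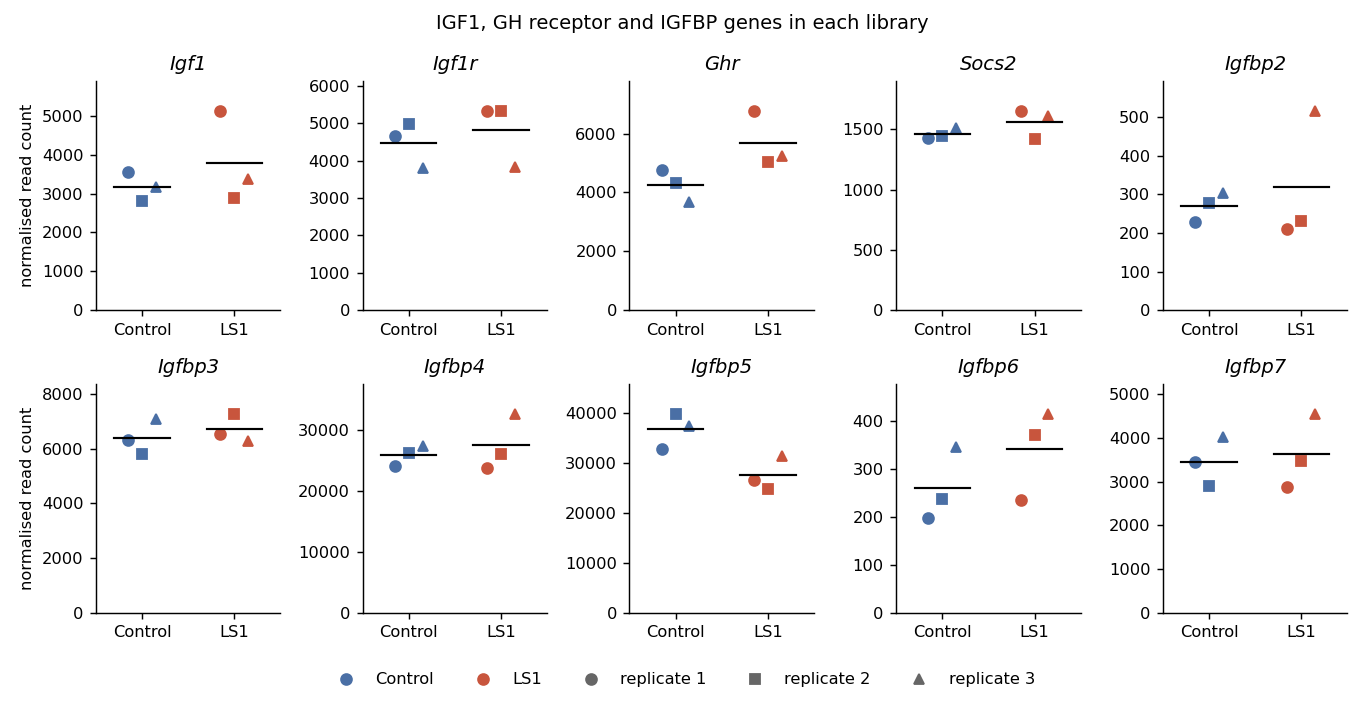
Normalised read count (y axis, from 0) of each gene in the 3 Control and 3 LS1 libraries, with the replicate as the shape and the group mean as a line. The LS1 points of *Ghr* (5038 to 6773) lie above those of Control (3668 to 4750.3), the LS1 points of *Igfbp5* (24809 to 31285) lie below those of Control (32813 to 39823), and the groups of the other 8 genes overlap.

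*Igfbp5* (ENSMUSG00000026185, chr1:72857932-72874884, minus strand of GRCm38) encodes a binding protein that is abundant in bone, adheres to matrix and modulates IGF action on osteoblasts and chondrocytes. Normalised read counts were 32813, 39823 and 37346 in Control replicates 1 to 3 and 26628, 24809 and 31285 in LS1 replicates 1 to 3. The LS1 values were all lower than the lowest Control value, and LS1 replicate 3 was the nearest to Control. The mean was 36661 ± 3555 in Control and 27574 ± 3340.2 in LS1 (SD, n = 3 each), a log2 fold change of -0.41 (SE 0.14, 95% confidence interval -0.72 to -0.11) and a percent difference of -24.9% (-39.3% to -7.04%). The limma p was 0.0130 and became 0.283 after Benjamini-Hochberg adjustment over all genes. The exact two-sided permutation test gave p = 0.1, the smallest that 3 against 3 mice allow. Leaving out single libraries moved the log2 fold change between -0.51, without LS1 replicate 3, and -0.34, without LS1 replicate 2, so no library set its direction.

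*Igfbp2* lies beside it on chromosome 1 (chr1:72824503-72852474, plus strand), with 5457 bases between the genes and transcription in the opposite direction. It encodes a binding protein found in the circulation and in developing bone. Its normalised read counts were 227, 278 and 303 in Control and 209, 231 and 516 in LS1. LS1 replicate 3 was far above the other libraries, while LS1 replicate 1 was below the Control range and replicate 2 within it. The log2 fold change was 0.13 (SE 0.33, 95% confidence interval -0.59 to 0.85, adjusted p = 0.899 in limma) and was -0.28 without LS1 replicate 3. These neighbouring genes therefore had log2 differences of opposite sign with all libraries and of the same sign without that library.

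*Igfbp4* (chr11:99041244-99054392, plus strand), whose product mainly restrains IGF action until it is cleaved, had 24025, 26187 and 27304 normalised read counts in Control and 23836, 26013 and 32705 in LS1. The groups overlapped, and replicate 3 was the highest in both. Its log2 fold change of 0.08 (SE 0.15, 95% confidence interval -0.24 to 0.40, limma adjusted p = 0.855) became -0.051 without LS1 replicate 3. *Igfbp3* (chr11:7206086-7213923, minus strand), the main carrier of IGF1 in the circulation, had 6311, 5810.3 and 7087 normalised read counts in Control and 6542, 7289 and 6289 in LS1. All LS1 values of *Igfbp3* lay near the Control range, and only LS1 replicate 2 was above it. The log2 fold change of *Igfbp3* was 0.07 (SE 0.13, 95% confidence interval -0.22 to 0.36, limma adjusted p = 0.862), and 0.14 without Control replicate 3 and 0.11 without LS1 replicate 3. *Igfbp1*, its neighbour at a distance of 3539 bases and a gene of liver, had no more than 3 reads in any library, so no level could be detected at this depth.

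*Igfbp7* (chr5:77349240-77408041, minus strand) encodes a secreted protein related to the IGFBPs that binds IGF with low affinity. Its exons overlap those of *Polr2b* on the other strand, which had a mean of 8454 normalised read counts in Control and 8801 in LS1, and whether reads were counted by strand was not given in the sources used here, so the level of *Igfbp7* is uncertain. Normalised read counts of *Igfbp7* were 3462, 2908 and 4013 in Control and 2876, 3483 and 4560.2 in LS1. The groups overlapped widely, with replicate 3 again the highest in both. The log2 fold change was 0.06 (SE 0.19, 95% confidence interval -0.35 to 0.47, limma adjusted p = 0.921). Leaving out single libraries gave -0.12, without LS1 replicate 3, to 0.22, without LS1 replicate 1, and it was -0.060 without Control replicate 2. *Igfbp6* (chr15:102144362-102149511, plus strand), which prefers IGF2 as its ligand, had 198, 237 and 346 normalised read counts in Control and 236, 371 and 416 in LS1. LS1 replicates 2 and 3 were above all Control libraries and LS1 replicate 1 was not. Its log2 fold change of 0.39 was of the size seen for *Ghr*, but with an SE of 0.29 the 95% confidence interval ran from -0.25 to 1.02 (limma adjusted p = 0.597). It was 0.63 without LS1 replicate 1, 0.61 without Control replicate 3, 0.22 without LS1 replicate 3 and 0.21 without Control replicate 1, with limma adjusted p from 0.399 to 0.833.

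The 6 IGFBP transcripts were also expressed as percentages of their summed level per kilobase of exon in each library, a measure that does not depend on the size factor of the library. *Igfbp5* and *Igfbp4* were the members whose shares separated the lines, though no share could pass a threshold with 3 mice against 3. The share of *Igfbp5* was 34.0%, 38.6% and 33.7% in Control and 30.3%, 26.3% and 27.3% in LS1. That of *Igfbp4* was 33.8%, 34.5% and 33.5% in Control and 36.9%, 37.5% and 38.9% in LS1. Neither share overlapped between the lines, including LS1 replicate 3. The mean share was 35.4% ± 2.75 in Control and 28.0% ± 2.07 in LS1 for *Igfbp5*, and 33.9% ± 0.515 and 37.8% ± 1.01 for *Igfbp4* (SD, n = 3), with an exact two-sided permutation p = 0.1 for each, the smallest possible. Shares of 1 sum are not independent of each other, and a lower share of *Igfbp5* raises the others. The normalised read counts of *Igfbp4* itself overlapped between the lines (exact permutation p = 0.9). Its share, and the ratio of the 2 genes below, are therefore not results separate from that of *Igfbp5*. Leaving out single libraries moved the difference in mean share from -8.57 to -5.83 percentage points for *Igfbp5* and from 3.28 to 4.27 for *Igfbp4*, with -7.09 and 3.28 without LS1 replicate 3. The ratio of *Igfbp5* to *Igfbp4* level was 1.00, 1.12 and 1.01 in Control and 0.821, 0.701 and 0.703 in LS1, with no overlap (exact permutation p = 0.1). The other 4 shares overlapped between the lines, with exact permutation p of 0.4 for *Igfbp3* and *Igfbp7*, 0.2 for *Igfbp6* and 0.8 for *Igfbp2*, out of 6 shares compared. The difference in the share of *Igfbp2* was 0.170 percentage points and -0.056 without LS1 replicate 3.

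**Figure D3:**
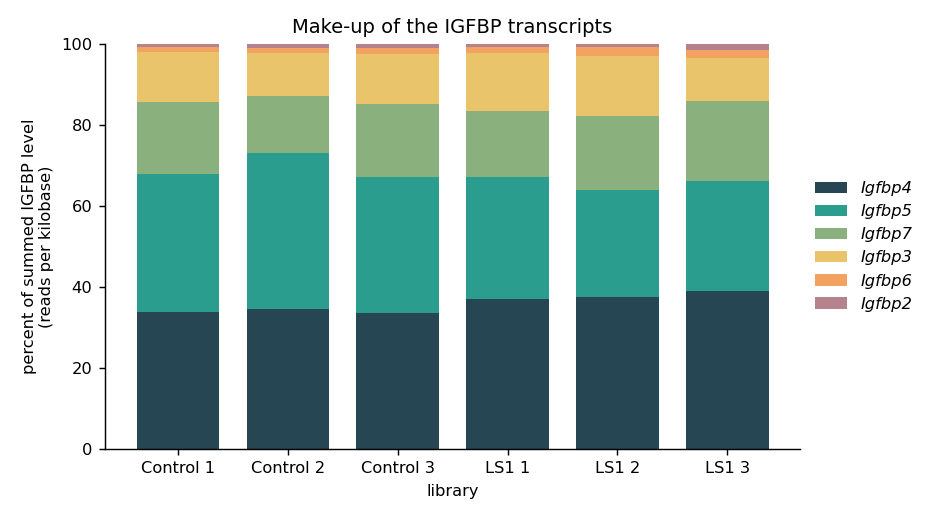
Share of each IGFBP gene in the summed IGFBP level per kilobase of exon (y axis, percent) in each of the 6 libraries. The *Igfbp5* band takes 33.7% to 38.6% in Control and 26.3% to 30.3% in LS1, and the *Igfbp4* band 33.5% to 34.5% in Control and 36.9% to 38.9% in LS1.

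*Ghr* (ENSMUSG00000055737, chr15:3317760-3583492, minus strand) encodes the growth hormone receptor, a cytokine receptor present in liver, bone and growth plate cartilage. Normalised read counts were 4750.3, 4326 and 3668 in Control and 6773, 5038 and 5239 in LS1. The lowest LS1 value exceeded the highest Control value, and LS1 replicate 1 was the highest by a wide margin. The mean was 4248 ± 545 in Control and 5683 ± 949 in LS1 (SD, n = 3 each), a log2 fold change of 0.42 (SE 0.16, 95% confidence interval 0.07 to 0.76), or a percent difference of 33.4% (5.01% to 69.4%). The limma p was 0.0225 and the adjusted p 0.313, with an exact permutation p = 0.1. Without LS1 replicate 1 the log2 fold change was 0.28, and it was no larger than 0.50 with any other library left out.

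*Socs2* (chr10:95385362-95417180, minus strand), the feedback inhibitor of this receptor, differed little between the lines. It had 1433, 1446 and 1511 normalised read counts in Control and 1654, 1424 and 1614 in LS1. The groups overlapped through LS1 replicate 2, which was the lowest of the 6 libraries. The log2 fold change was 0.09 (SE 0.15, 95% confidence interval -0.23 to 0.42, limma adjusted p = 0.827). The 3 libraries with a high level of Y-linked genes were also the 3 highest for *Socs2*, at 1511 to 1654 normalised read counts against 1424 to 1446. This level was high in Control replicate 3 and LS1 replicates 1 and 3, so it was not balanced between the lines. With the Y-linked level as a covariate, the log2 fold change of *Socs2* was 0.05 and that of *Ghr* 0.42. It was -0.455 for *Igfbp5*, 0.34 for *Igfbp6*, 0.19 for *Igf1r* and 0.13 for *Igf1*. The other IGFBPs were at 0.066 for *Igfbp3*, 0.049 for *Igfbp4*, 0.015 for *Igfbp2* and 0.0063 for *Igfbp7*.

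*Igf1* (ENSMUSG00000020053, chr10:87858265-87937042, plus strand) had 3559, 2798 and 3172 normalised read counts in Control and 5128, 2881 and 3385 in LS1. LS1 replicate 1 was far above the rest, and the other LS1 libraries lay within the Control range. The mean was 3176 ± 380.3 in Control and 3798 ± 1179 in LS1 (SD, n = 3 each), a log2 fold change of 0.22 (SE 0.20, 95% confidence interval -0.22 to 0.66, limma adjusted p = 0.676), and -0.018 without LS1 replicate 1. *Igf1r* (chr7:67952827-68233668, plus strand), the tyrosine kinase receptor for IGF1 and IGF2, had 4650.4, 4969.9 and 3806 normalised read counts in Control and 5322, 5330.3 and 3826 in LS1. Replicate 3 was the lowest in both groups, and the groups overlapped. Its log2 fold change was 0.10 (SE 0.17, 95% confidence interval -0.27 to 0.47, limma adjusted p = 0.835) and was -0.011 without Control replicate 3. The interval for *Igf1r* leaves room for differences from -16.8% to 38.3%.

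**Figure D4:**
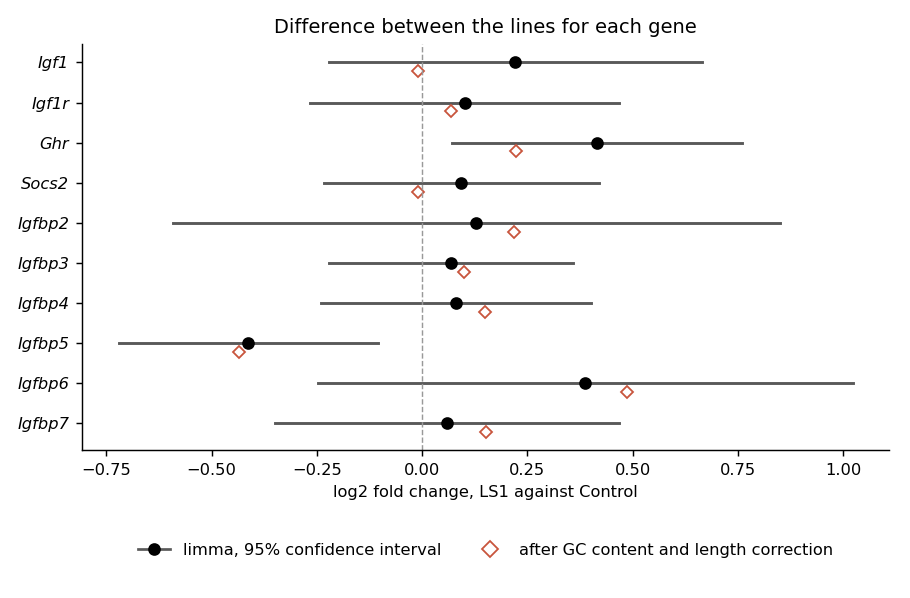
Log2 fold change of each gene in LS1 against Control (x axis), with black points and bars for the limma estimate and its 95% confidence interval, and open diamonds for the estimate after correction of each library for GC content and transcript length. The interval lies above 0 for *Ghr* (0.07 to 0.76) and below 0 for *Igfbp5* (-0.72 to -0.11), and the diamond of *Ghr* sits at 0.22 and that of *Igfbp5* at -0.44.

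Several members shared a pattern between replicates that did not follow the line. In both groups, replicate 3 was the highest for *Igfbp2*, *Igfbp4*, *Igfbp6* and *Igfbp7* and the lowest for *Igf1r*. These 4 IGFBPs lie in the top quintile of the tested genes by GC content. Over all genes tested, the median log2 difference of replicate 3 from the mean of replicates 1 and 2 ran from -0.12 in the lowest quintile of GC content to 0.14 in the highest in Control, and from -0.20 to 0.26 in LS1. It also ran from 0.14 in the quintile of the shortest transcripts to -0.10 in that of the longest in Control and from 0.20 to -0.15 in LS1. Among members the same difference was 0.27 in Control and 1.22 in LS1 for *Igfbp2* (GC content 62.1%), and -0.31 and -0.16 for *Ghr* (40.9%). *Igf1* and *Ghr* lie in the quintile with the lowest GC content.

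After each library was corrected for GC content and then for transcript length, the log2 fold change of *Igfbp5* was -0.44 (SE 0.13, limma adjusted p = 0.178), close to its value without the correction. That of *Ghr* was 0.22 (SE 0.10, limma unadjusted p = 0.0518 and adjusted p = 0.319), and that of *Igf1* was -0.011 (SE 0.14). *Igfbp6* came to 0.49 (SE 0.21, limma unadjusted p = 0.0407 and adjusted p = 0.296). The size of the *Ghr* difference thus depended on the correction and that of *Igfbp5* did not, and 0 of the 10 members were called with it.

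**Figure D5:**
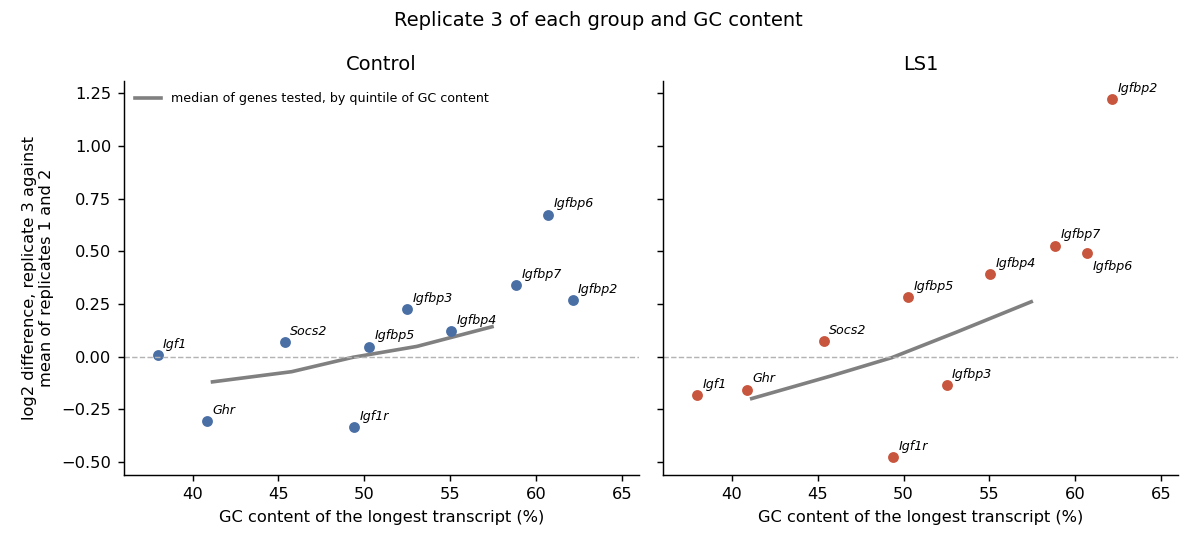
Log2 difference of replicate 3 from the mean of replicates 1 and 2 (y axis) against GC content of the longest transcript (x axis, percent), in Control and in LS1. Points are the 10 genes and the grey line joins the medians of all genes tested by quintile of GC content, which rise from -0.12 to 0.14 in Control and from -0.20 to 0.26 in LS1.

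Some cell type markers also differed in summed level between the lines. Over all genes tested, 7.08% were higher and 5.86% lower at an unadjusted limma p under 0.05, and 2.38% were called in DESeq2. LS1 lay wholly above Control for 10.3% of all genes and wholly below for 8.94%. Chondrocyte markers had a summed level of 16203 to 19167 TPM in Control and 21946 to 25800 TPM in LS1. Of the 16, 14 had a positive log2 fold change, with a median of 0.49, and 0 were called in limma against 6 called higher in DESeq2. At an unadjusted limma p under 0.05, 9 were higher, and for 8 LS1 lay wholly above Control. Hypertrophic chondrocyte markers were positive for 5 of 7 with a median of 0.37. At an unadjusted limma p under 0.05, 3 were higher, for 3 LS1 lay wholly above Control, and 1 was called higher in DESeq2. Osteoblast markers had a summed level of 40034 to 46294 TPM in Control and 38632 to 46118 TPM in LS1, with 7 of 12 positive and a median of 0.04. Of these 12, 1 was lower at an unadjusted limma p under 0.05, 2 had LS1 wholly below Control and 1 was called lower in DESeq2. Marrow stroma markers were positive for 7 of 8 with a median of 0.17, fibrous and tendon markers for 7 of 9 with a median of 0.37, and macrophage markers for 10 of 11 with a median of 0.28. Skeletal muscle markers were positive for 0 of 9 with a median of -0.68. Their summed levels overlapped, at 217 to 533 TPM in Control and 109 to 338 TPM in LS1. Their median log2 deviation from the Control mean was 0.73, -0.21 and -0.39 in Control and -1.64, 0.17 and -0.43 in LS1, replicates 1 to 3. Erythroid markers were positive for 0 of 13 with a median of -0.52, and 2 were called lower in limma. Their summed levels did not overlap, at 89442 to 112255 TPM in Control and 46839 to 56055 TPM in LS1. B cell markers were negative for 11 of 12 with a median of -0.50, of which 7 were lower at an unadjusted p under 0.05, 5 had groups that did not overlap, 0 were called in limma and 2 were called lower in DESeq2. Neutrophil markers were positive for 9 of 10 with a median of 0.19, and the medians of osteoclast and endothelial markers were 0.03 and -0.00013. In bulk tissue, fewer cells of a type and less RNA per cell cannot be told apart, and the part of tissue make-up in the results for *Ghr* and *Igfbp5* was not tested.

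Around the members, 55 other genes of the axis were listed and 49 passed the filter. Of these 49, 0 were called in limma, 25 had a positive and 24 a negative log2 fold change, and the median was 0.0058, beside 0.0054 for all genes. At an unadjusted p under 0.05 in limma, 4 were higher in LS1 and 0 lower, and the same 4 genes had groups that did not overlap. Over all genes, 7.08% were higher and 5.86% lower at that p, and LS1 lay wholly above Control for 10.3% and wholly below for 8.94%. The 4 of 49 higher were thus close to the background, and the 0 lower, also 0 with LS1 wholly below, were under it. The 4 genes included *Igf2*, *Jak2* and *Igf2bp2*.

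*Igf2*, the fetal growth factor that shares IGF1R with IGF1, had a log2 fold change of 0.82 (SE 0.17, limma adjusted p = 0.142) and was called in DESeq2. Without LS1 replicate 3 it was 1.01 (SE 0.15) and was called in limma (adjusted p = 0.0052). Its normalised read counts were 43490.2, 49415 and 49949 in Control and 90467, 101289 and 64555 in LS1. LS1 replicate 3 was the lowest of the line and still above Control. At 310 TPM or more in every library, *Igf2* exceeded each of the 10 members, so *Igf1* made up 4.51%, 3.17% and 3.54% of the 2 ligands in Control and 3.17%, 1.62% and 2.94% in LS1. These ligand shares overlapped (exact permutation p = 0.2). The summed IGFBP level was 2.02, 1.93 and 2.04 times the summed ligand level in Control and 0.896, 0.872 and 1.64 times in LS1, with no overlap (exact permutation p = 0.1), and LS1 replicate 3 was the nearest to Control. The LS1 mean of this ratio was 1.14 with LS1 replicate 3 and 0.884 without it, against 1.93 to 2.04 in the Control libraries. *Igf2* made up most of the ligand sum in this ratio. The ligand shares and the ratio used merged exons, which for *Igf1* span 9904 bases against 7052 for its longest transcript. Their absolute values thus depend on the length used, and the IGFBP sum includes *Igfbp7*, whose level is uncertain.

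*Jak2*, the kinase bound to the growth hormone receptor, had 10193, 9574 and 8141 normalised read counts in Control and 12008, 12441 and 10458 in LS1. Its log2 fold change was 0.33 (SE 0.14, limma adjusted p = 0.347), and *Igf2bp2*, an RNA-binding protein that acts on *Igf2* transcripts, had 0.41 (SE 0.15, limma adjusted p = 0.297). For both genes the lowest LS1 value exceeded the highest Control value. *Stat5a* and *Stat5b*, which carry the growth hormone signal to the nucleus, had log2 fold changes of -0.19 (SE 0.15) and -0.15 (SE 0.14). The feedback inhibitors *Cish* and *Socs3* had 0.27 (SE 0.29) and -0.44 (SE 0.23). None of these 4 passed an unadjusted p of 0.05 in limma.

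Among the enzymes that free IGF from its carriers, *Pappa*, a protease of IGFBP4 and IGFBP5, had a log2 fold change of 0.36 (SE 0.18) and *Pappa2*, which cleaves IGFBP3 and IGFBP5, one of 0.20 (SE 0.19). The stanniocalcins *Stc1* and *Stc2*, inhibitors of these proteases, had 0.33 (SE 0.22) and 0.24 (SE 0.14). *Htra1*, a serine protease of cartilage and bone that cleaves IGFBP5, had -0.08 (SE 0.12). All 5 had overlapping groups and limma adjusted p from 0.435 to 0.826. On the receptor side, *Igf2r*, which clears IGF2, had 0.19 (SE 0.14) and the insulin receptor gene *Insr* 0.08 (SE 0.18). The adaptors *Irs1* and *Irs2*, which link IGF1R to its downstream kinases, had 0.35 (SE 0.17) and -0.02 (SE 0.19), and *Grb10*, an imprinted inhibitor of the receptor, 0.35 (SE 0.17). Pituitary-type *Gh* transcripts were scarce, at 20.9 to 53.2 normalised read counts.

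The genes whose profile over the 6 libraries was most like that of a member were found by the root mean square difference of centred log2 values among 14770 genes with a mean of at least 100 reads. For *Ghr*, whose own spread was 0.270, these were *Impa1* (0.023), *Irx5* (0.027) and *Casd1* (0.030). *Igfbp5*, with a spread of 0.243, was nearest to *Ccdc9b* (0.042), *Dand5* (0.049) and *Rcsd1* (0.056). *Igf1*, with a spread of 0.289, was nearest to *Mpv17l* (0.029), *Yaf2* (0.061) and *Mbip* (0.064). *Socs2* varied little, with a spread of 0.085, and its nearest genes were *Atp6v1d* (0.021), *Antxr1* (0.027) and *Capn2* (0.033). No member of the axis was among these 12 genes, and nearness over 6 libraries among so many genes describes the profiles only.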

How the data were processed

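RNAseq was analysed from 3 Control and 3 LS1 libraries, grouped by the strain given per the labels. The authors mapped reads to GRCm38 (Ensembl release 84) with HISAT2 2.0.2, counted them with featureCounts 1.4.6 and used DESeq2. The deposited values are a signal, the read count of a gene divided by 1 size factor per library, called normalised read count here. Reads were recovered by dividing out this factor, and 100% came out whole within 0.01 reads, although the factor of Control replicate 1 was too near 1 to tell this from rounding. Totals were 68803249 to 88745366 reads, and 0 columns were left unused.

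The log2(value + 1) values of 19308 genes with a mean of at least 20 reads were compared with limma 3.58.1 in R 4.3.3 (mean-variance trend, robust moderation, Benjamini-Hochberg threshold 0.05). A fold change on this scale understates that of low genes. Alternatives were edgeR 4.0.16, DESeq2 1.42.0 and voom on the recovered reads, TMM factors, filters of 5 reads or none, a pseudocount of 8, a replicate block, a Y-linked covariate and each library left out. The correction for GC content and length (loess) was chosen after the data were seen. Tested on simulated data of 19308 genes for LS1 against Control, limma recovered 50.5% of genes changed by 1 on the log2 scale. It recovered 92.3% of those changed by 2, and 9.74% of its calls were false. DESeq2 recovered 63.3% and 97.8%, and 21.0% of its calls were false. Both false rates were above the threshold of 0.05, so the DESeq2 calls given here are the less certain. The simulated libraries were independent, with no trend by GC content or length. No member differed by more than 0.42, so these rates do not give the power for the members. Gene positions came from the GENCODE annotation of GRCm38, later than that of the authors, with a symbol for 99.1% of identifiers, and promoter sequences from RefSeq.

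Named genes were all members, a list of axis genes however they moved, the 3 of these with the smallest p, and the 3 nearest profiles of *Igf1*, *Ghr*, *Socs2* and *Igfbp5*. A further gene of that list is counted but not reported here. The members and lists were chosen with earlier results of these data known. The p-values measure the spread between mice, and for 1 gene an exact permutation test cannot go below 0.1.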

Additional observations from a re-analysis of the deposited data

How the results depend on the processing

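The count of members called was 0 under all 17 alternatives, and *Igfbp5* and *Ghr* kept their direction in each, with adjusted p from 0.129 to 0.612 and from 0.147 to 0.623. Over all genes, limma called 14, against 7 with edgeR, 8 with voom, 459 with DESeq2 and 45 with no filter. Leaving out single libraries gave 5 (without Control replicate 2) to 324 (without LS1 replicate 3), with 9 without Control replicate 1 and 46 without LS1 replicate 1. Of the other axis genes 0 were called, against 1 in DESeq2, 1 with no filter and 0 to 1 with single libraries left out, the 1 being without LS1 replicate 3. The cause of these changes was not tested.

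Small log2 fold changes changed sign. With single libraries left out, *Igf1* ran from -0.018 to 0.40, *Igf1r* from -0.011 to 0.26, *Igfbp2* from -0.28 to 0.37, *Igfbp4* from -0.051 to 0.18 and *Igfbp7* from -0.12 to 0.22, and the difference in the share of *Igfbp2* from -0.056 to 0.289 percentage points. With the GC content and length correction *Igf1* was at -0.011 and *Socs2* at -0.0095, each with and without the replicate block.

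Sample titles in both groups share the letters A, B and C, taken as replicates 1 to 3. Deviations of same-lettered libraries correlated at 0.05, 0.02 and 0.22. Between letters the correlations ran from -0.15 to 0.12, and from -0.15 to -0.09 where 1 library had the letter C. Only the replicate 3 libraries thus deviated together more than libraries of different letters, and the letters were not taken to pair the mice. With the replicate block 12 genes were called, and it changed no call of a member. It did lower standard errors, to 0.11 for *Ghr* (limma unadjusted p = 0.0055, adjusted p = 0.147) and 0.12 for *Igfbp5* (0.0074 and 0.156). Over all genes, 3377 had an unadjusted limma p under 0.05 with the block, against 2499 without it. Every library left out leaves 2 mice in a group, and at this number and depth the interval of each member, not counting error, limits what can be told.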
